A study of Mus musculus with 4 samples.

Results

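H3K27ac peaks that lay close together on the chromosome were joined into clusters, and 97 clusters drew most of their peaks from the library of Hdac3-deleted chondrocytes. Peaks of both deposited lists were pooled, and peaks with gaps of 12.5 kb or less were joined. A cluster was kept when it held at least 8 peaks and the Hdac3-deleted culture gave 65% or more of them. The 97 clusters held 1329 of the 26003 pooled peaks, 989 from the Hdac3-deleted culture and 340 from the control. Members were chosen by these peak numbers, so the lean itself is a description and was not tested. Of the 741 clusters with 8 or more peaks, 13.1% leaned to the Hdac3-deleted culture in this way, 10.9% (81 clusters) leaned by the same margin to the control, and the other 563 were balanced.

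Both libraries came from primary C57Bl/6 mouse chondrocytes grown ex vivo as micromass cultures, which are dense spots of cells that lay down cartilage matrix. The Hdac3-knockout culture was transduced with Cre-recombinase adenovirus (Cre library), and the wild-type culture was transduced with GFP control adenovirus (GFP library). Each group had 1 H3K27ac library, so no difference below has a replicate check. Both cultures carried an adenovirus; the sources used here give neither the share of cells that lost Hdac3 nor the Hdac3 allele, nor the number and age of the animals. The 2 input libraries and the RNA-seq named in the design text were not analysed here. All 10 chondrocyte marker genes had H3K27ac peaks within 10 kb in both libraries, with 110 Cre and 129 GFP peaks in all. Among markers of other cell types, peaks were found at 1 of 5 fibroblast genes (Col14a1, 1 Cre and 0 GFP peaks), 1 of 4 osteoblast genes (Sp7, 2 and 3) and 1 of 5 macrophage genes (Cd68, 0 and 3). They were found at 0 of 4 genes each for endothelium, muscle and fat. Neither list had a peak within 10 kb of Hdac3, and H3K27ac does not measure its deletion.

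HDAC3 removes acetyl groups from histones as the enzyme of the NCoR and SMRT corepressor complexes, which are brought to chromatin by DNA-binding repressors and nuclear receptors. H3K27ac, the acetylation of lysine 27 on histone H3, marks active promoters and enhancers and is removed by deacetylases. Active enhancers that sit close together, often called stitched or super-enhancers when they are large, are known to lie beside genes that define a cell type, such as Sox9 and the matrix genes in chondrocytes.

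The promoters below show where member peaks met a gene start. Each is a RefSeq window (build GRCm38.p6, which numbers chromosomes as mm10 does) from 250 bases before to 50 bases after a start, written 5′ to 3′ on the gene's strand. Peaks of the Cre list alone met the windows of Zbtb7b (a zinc-finger repressor), Bcl3 (an IκB-family cofactor of NF-κB), Hook2 (a microtubule linker whose window closes the cluster that holds Junb) and Sbno2 (a corepressor of the STAT3 pathway in macrophages). Peaks of both lists met the windows shown for Fth1 (ferritin heavy chain, which stores iron) and Epyc (epiphycan, a small proteoglycan of growth plate cartilage). Another Fth1 window, chr19:9980350-9980649, was met by the Cre list alone and is not shown. Capitals mark matches to the motifs searched.
Zbtb7b, chr3:89393329-89393628, minus strand: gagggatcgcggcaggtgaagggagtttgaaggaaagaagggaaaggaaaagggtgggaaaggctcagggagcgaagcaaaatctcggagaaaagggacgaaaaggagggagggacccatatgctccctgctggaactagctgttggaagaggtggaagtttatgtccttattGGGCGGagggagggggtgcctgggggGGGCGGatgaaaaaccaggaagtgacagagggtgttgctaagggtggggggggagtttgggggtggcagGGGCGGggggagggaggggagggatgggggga
Bcl3, chr7:19822706-19823005, minus strand: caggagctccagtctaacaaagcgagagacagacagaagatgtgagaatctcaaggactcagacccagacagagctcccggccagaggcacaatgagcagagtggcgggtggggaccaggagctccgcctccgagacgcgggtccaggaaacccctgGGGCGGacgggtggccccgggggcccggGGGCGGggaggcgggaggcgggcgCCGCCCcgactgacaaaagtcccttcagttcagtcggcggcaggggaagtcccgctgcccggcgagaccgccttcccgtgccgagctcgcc
Hook2, chr8:84990373-84990672, plus strand: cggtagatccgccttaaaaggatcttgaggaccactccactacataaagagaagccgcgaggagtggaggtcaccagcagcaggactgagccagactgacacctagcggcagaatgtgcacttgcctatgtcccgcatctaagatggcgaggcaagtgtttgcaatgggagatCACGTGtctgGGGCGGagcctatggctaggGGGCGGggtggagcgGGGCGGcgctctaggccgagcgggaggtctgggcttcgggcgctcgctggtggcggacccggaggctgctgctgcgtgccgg
Sbno2, chr10:80102653-80102952, minus strand: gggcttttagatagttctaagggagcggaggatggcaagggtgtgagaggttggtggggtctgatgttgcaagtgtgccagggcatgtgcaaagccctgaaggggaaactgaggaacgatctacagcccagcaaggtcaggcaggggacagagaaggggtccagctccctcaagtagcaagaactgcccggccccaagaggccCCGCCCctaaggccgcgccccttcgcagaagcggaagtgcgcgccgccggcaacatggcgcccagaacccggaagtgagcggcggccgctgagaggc
Fth1, chr19:9982396-9982695, plus strand: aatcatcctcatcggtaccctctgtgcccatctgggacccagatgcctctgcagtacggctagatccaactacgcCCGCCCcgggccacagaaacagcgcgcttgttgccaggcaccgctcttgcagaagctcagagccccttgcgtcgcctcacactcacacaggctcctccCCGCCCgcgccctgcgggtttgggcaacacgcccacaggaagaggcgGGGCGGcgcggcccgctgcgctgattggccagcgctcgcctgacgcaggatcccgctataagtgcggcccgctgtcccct
Epyc, chr10:97646853-97647152, plus strand: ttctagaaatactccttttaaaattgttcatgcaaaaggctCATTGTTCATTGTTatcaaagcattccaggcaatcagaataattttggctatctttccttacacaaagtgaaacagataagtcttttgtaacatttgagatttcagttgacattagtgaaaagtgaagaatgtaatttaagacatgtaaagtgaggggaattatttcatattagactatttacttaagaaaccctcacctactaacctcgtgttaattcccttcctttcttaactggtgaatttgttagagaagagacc

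The motifs were AP-1 (TGACTCA), CRE (TGACGTCA), NF-κB (GGAATTTCC), STAT (TTCCNGGAA), the GC box (GGGCGG), the E-box (CACGTG) and SOX (ACAATGG or CATTGTT), each read on both strands. A match describes letters and is not a bound site. The GC box was in 17 of the 31 promoter windows that member peaks met (54.8%), against 52.7% of the 1763 windows under any peak and 35.7% of all 32851 windows. The AP-1 letters were in 4 of the 31 (12.9%), against 4.42% of windows under any peak and 5.20% of all windows. These were windows of Gm15417, Gm36913, Mfsd11 and Rnh1, and the one of Gm15417 was met by a GFP peak alone. The SOX letters were in 2 of the 31, Epyc and Rnh1 (6.45%), against 2.38% of windows under any peak and 6.33% of all. The CRE was in 1 (3.23%), against 4.14% and 1.79%, and the E-box in 3 (9.68%), against 9.81% and 7.15%. NF-κB and STAT letters were in none of the 31 windows, and in 0.397% and 1.36% of the windows under any peak. Counts this small describe these windows only.

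The cluster over Vmp1 also holds the gene of miR-21a, a microRNA abundant in many stressed and proliferating cells, at chr11:86584067-86584158 on the minus strand. Its mature sequences are shown with the seed, bases 2 to 8, in capitals.
mmu-miR-21a-5p: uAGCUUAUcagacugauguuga
mmu-miR-21a-3p: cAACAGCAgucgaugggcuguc
The nearest Cre peak lay 128 bp from the hairpin and the nearest GFP peak 251 bp away, so neither list covered it.

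Member clusters were mostly small. The median cluster had 10 peaks (range 8 to 53) over 15477 bp (2298 to 81191), 51 of the 97 had 8 to 10 peaks, and 14 had 20 or more. Members lay on all 19 autosomes and none on X. Chromosome 10 held 11 Cre-leaning against 5 GFP-leaning clusters among 50, and chromosome 4 held 10 against 3 among 46. Chromosome 13 held 8 against 0 among 31, whereas chromosome 2 held 4 against 9 among 52. The Cre share of all peaks, members included, was 53.9%, 52.0%, 52.8% and 50.6% on chromosomes 10, 4, 13 and 2. Among clusters of exactly 8 peaks, 18 leaned to Cre and 8 to GFP of 157. Among those of 9 to 10 peaks, 33 and 27 of 165 did. Among those of 30 or more peaks 7 leaned to Cre and 3 to GFP of 64. Between 11 and 29 peaks the numbers were close, with 21 and 22 at 11 to 14 peaks, 11 and 12 at 15 to 19 and 7 and 9 at 20 to 29.

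**Figure D1:**
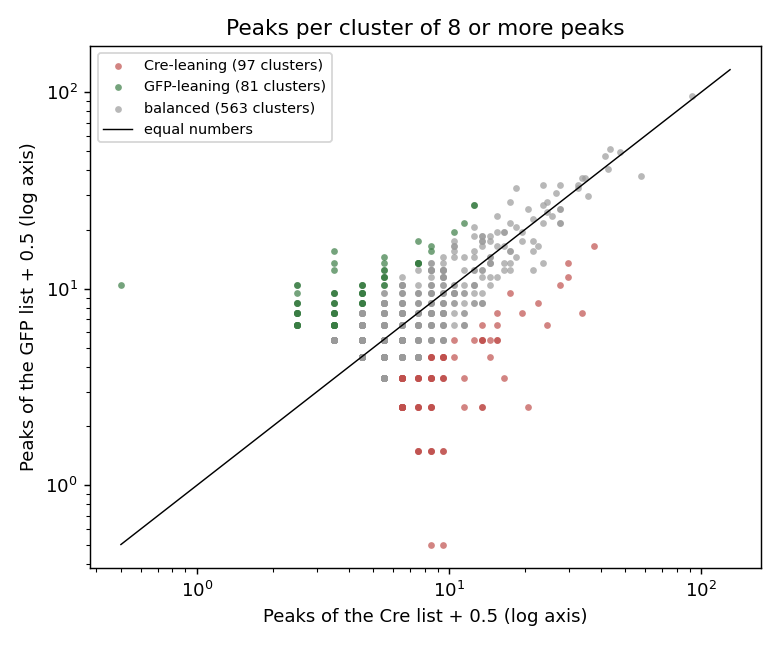
Peaks of the Cre list (x) against peaks of the GFP list (y) in each of the 741 clusters with 8 or more peaks, with 0.5 added on log axes. The 97 Cre-leaning clusters lie right of the line of equal numbers, the 81 GFP-leaning clusters above it, and most of both classes have few peaks.

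The largest member overlapped the higher-coordinate end of Prkch, which encodes the signalling kinase PKC eta, and ran on beyond the gene (chr12:73773563-73848411). It held 37 Cre peaks over 12738 bp and 16 GFP peaks over 4081 bp, and 45 of the 53 were intergenic. A second member inside Prkch, 17440 bp away, held 24 Cre and 6 GFP peaks. The cluster in Fndc3b, a gene of a membrane protein with fibronectin type III domains, held 29 Cre and 13 GFP peaks. The cluster over Fkbp8 and Ell, which encode a mitochondrial chaperone that holds Bcl-2 proteins and an elongation factor of RNA polymerase II, held 27 and 10. Ell2, a paralog of Ell, had 19 Cre and 7 GFP peaks, but its highest summit was in the GFP list, at 17 Cre against 25 GFP fragments. Iqsec1, an exchange factor for ARF GTPases, had 22 Cre and 8 GFP peaks.

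Matrix and chondrocyte genes were among the members. Dcn encodes decorin, a small proteoglycan that binds collagen fibrils. Its cluster (chr10:97436478-97483427) held 33 Cre peaks over 12001 bp and 7 GFP peaks over 4931 bp. The Cre share was 82.5% (67.2 to 92.7, exact Clopper-Pearson 95% interval). Intervals here and below cover counting error only, because neighbouring peaks and amplified fragments are not independent. The summit pileup, the number of fragments at a peak's highest point, ranged from 9 to 30 in the Cre peaks, against 8, 12, 15, 14, 18, 19 and 22 in the 7 GFP peaks. Fold is the authors' ratio of observed to expected pileup, with a constant added to both. It was 4.80 at the Cre peak of 30 and 11.3 at that of 22. It was 8.03 and 10.3 at the GFP peaks of 22 and 19, so the tallest peak was not the most enriched. All 7 GFP peaks overlapped a Cre peak. Ordered by start, the Cre list had 13 peaks in a row over 19245 bp with no GFP peak starting between them. The last of these Cre peaks was overlapped by the GFP peak of 8 fragments. A further cluster 25920 bp away held 14 Cre and 4 GFP peaks, 10 of the Cre peaks in a row.

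The cluster on Sox9, the transcription factor that specifies chondrocytes, leaned by peak number but not by merged regions. It held 7 Cre peaks of 15, 15, 14, 13, 15, 11 and 11 fragments, against 3 GFP peaks of 15, 17 and 11 fragments. The pileups overlap, the highest is a GFP peak, and 1 GFP peak of 15 fragments spanned 704 bp and overlapped 2 Cre peaks. Once peaks of 1 list within 500 bp were merged, Sox9 had 2 Cre and 2 GFP regions. Epyc likewise held 6 Cre peaks of 10, 12, 18, 11, 10 and 12 fragments, against 2 GFP peaks of 17 and 14, and merged to 1 Cre and 2 GFP regions. Its Cre peak of 18 had a fold of 3.88, against 6.29 and 7.17 at the GFP peaks of 17 and 14. Runx1, a transcription factor of early chondrocytes and of blood, held 6 Cre and 3 GFP peaks, and the same numbers lay in a further cluster whose nearest gene was Runx1. Fgf2, a growth factor bound in cartilage matrix, held 6 Cre peaks of 8 to 16 fragments and 3 GFP peaks of 13, 9 and 9.

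The cluster over Vmp1, which encodes an autophagy protein of the endoplasmic reticulum, held 29 Cre and 11 GFP peaks (chr11:86578788-86629417). It contained the highest Cre summit of all members, at 36 fragments, and a neighbour of 35; the GFP peaks that met this pair had 14, 15 and 17 fragments. The tallest GFP peak of the cluster, with 22 fragments, lay elsewhere in it. The Cre list ran for 14 peaks over 34011 bp with no GFP peak between, the longest such run among members. A second member 54901 bp away, over Ptrh2 and Cltc, held 6 Cre and 2 GFP peaks.

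Only 2 members had no GFP peak. At Junb, an AP-1 subunit, the Cre list had 9 peaks of 13, 9, 11, 11, 22, 16, 10, 11 and 16 fragments over 15584 bp (chr8:84974828-84990411), and the GFP list had none. The tallest, of 22 fragments, had its summit 1151 bp upstream of the Junb start. At Rnf11, a RING finger protein, the Cre list had 8 peaks of 9 to 15 fragments and the GFP list none. Capzb, which encodes the beta subunit of the actin capping protein, had 20 Cre peaks of 8 to 19 fragments against 2 GFP peaks of 10 and 9. No Capzb peak overlapped one of the other list, and all lay 33560 to 67412 bp inside the gene from its start.

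Bcl3 had 8 Cre peaks of 11, 15, 11, 11, 13, 10, 12 and 12 fragments, against 1 GFP peak of 16 fragments that overlapped the Cre peak of 15. The strongest peak at Bcl3 was thus in the GFP list, and the other Cre peaks had 10 to 13 fragments. Traf2, an adaptor of TNF receptors, lay with Edf1 in a cluster of 13 Cre peaks of 9 to 22 fragments and 5 GFP peaks of 8 to 13. Sbno2 had 13 Cre peaks of 9 to 17 fragments and 2 GFP peaks of 8 and 10, none of them overlapping. Zbtb7b had 6 Cre peaks of 10, 11, 15, 22, 11 and 15 fragments and 3 GFP peaks of 13, 11 and 10, again with none shared. Its Cre peak of 22 had a fold of 5.58, against 7.97 at each Cre peak of 15 and 7.18 at the GFP peak of 13. Merged within 500 bp, Zbtb7b had 2 Cre and 3 GFP regions, so its lean turned to GFP. Sbno2 was chosen for description after its values were seen, as were Ptrh2, Cltc, Edf1, Lpcat1, Sf3b3, Eif3h and Ube2v1.

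**Figure D2:**
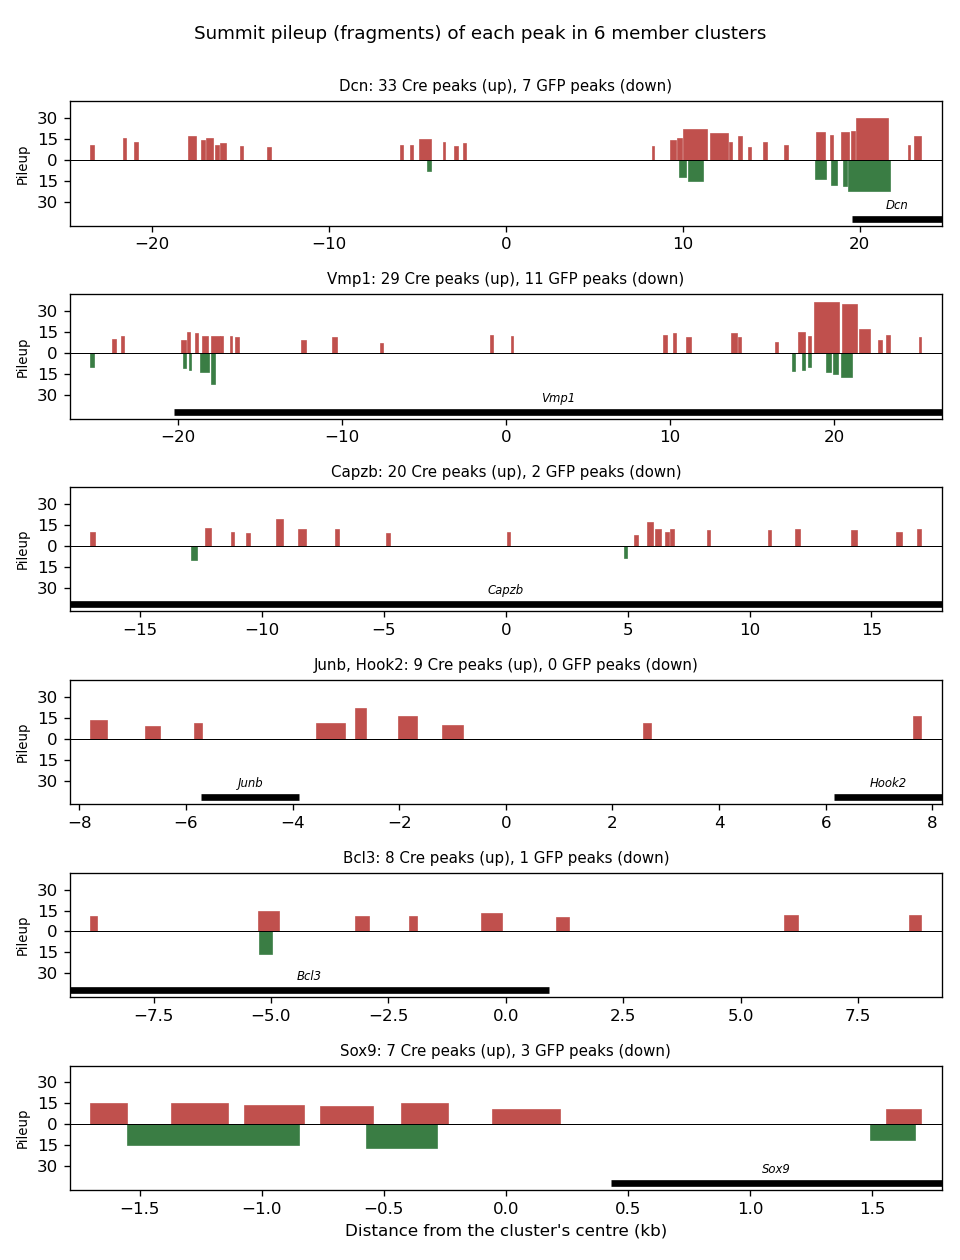
Summit pileup in fragments (y) of each peak against distance from the cluster's centre in kb (x) for 6 members, with Cre peaks drawn up, GFP peaks drawn down and genes as black bars. At Dcn, Capzb and Junb long stretches hold Cre peaks alone, whereas at Sox9 both lists cover nearly the same stretch.

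Near Btg1, an antiproliferative gene, a cluster held 9 Cre peaks and 1 GFP peak beside a second member on Btg1 itself with 14 and 5. Rnh1, the ribonuclease inhibitor, held 9 and 1. Single GFP peaks were also found against 8 Cre peaks at Ergic1 (a protein of the secretory pathway) and at the block of Jmjd6, Mettl23, Srsf2 and Mfsd11, and against 7 at Tatdn1 with Ndufb9, at a site 74604 bp from Pfkfb3 and at a site near Ube2v1. Sf3b3, a subunit of the SF3b splicing complex, held 13 and 2. Babam2, a subunit of a deubiquitinase complex, held 16 and 3. Of the remaining large clusters, Lrp1 (an endocytic receptor) held 17 and 9, M1ap with Dok1 and Loxl3 15 and 6, Aopep (an aminopeptidase) 15 and 5, and a site 24704 bp from Fth1 15 and 5. Just inside the threshold lay Lrp1 at 65.4%, followed by 18 clusters at 66.7%, of which Zfp395 and Zmiz1 had 15 and 12 peaks and Runx1, Fgf2 and Zbtb7b 9 each. Just outside, at 64.7%, lay a second Zmiz1 cluster, a cluster near Oxgr1 and the block of Fibp, Ctsw, Efemp2, Mus81 and Cfl1, each with 11 Cre and 6 GFP peaks.

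Few peaks decide each lean. The exact interval of the Cre share lay above the overall Cre share of all peaks, 50.5%, in 23 of the 97 clusters and held that share in 74, and the median lower bound was 39.0%. With 1 Cre peak fewer, 19 clusters would fall under 65%, or 37 counting those left with fewer than 8 peaks. With 1 GFP peak more, 30 would. The Cre share of peak-covered length, which is nearly the same measure, was at least 65% in 87 clusters, between 50% and 65% in 10 and under 50% in 0. When peaks of 1 list within 500 bp were merged inside the members, 591 Cre and 262 GFP regions were left (69.3% Cre, 66.1 to 72.4), and the share was at least 65% in 66 clusters. It was exactly 50% in 5 clusters, among them Sox9 and Fgf2. It was lower in 3, namely Zbtb7b with 2 Cre and 3 GFP regions and Epyc and a cluster near Eif3h with 1 Cre and 2 GFP regions each.

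**Figure D3:**
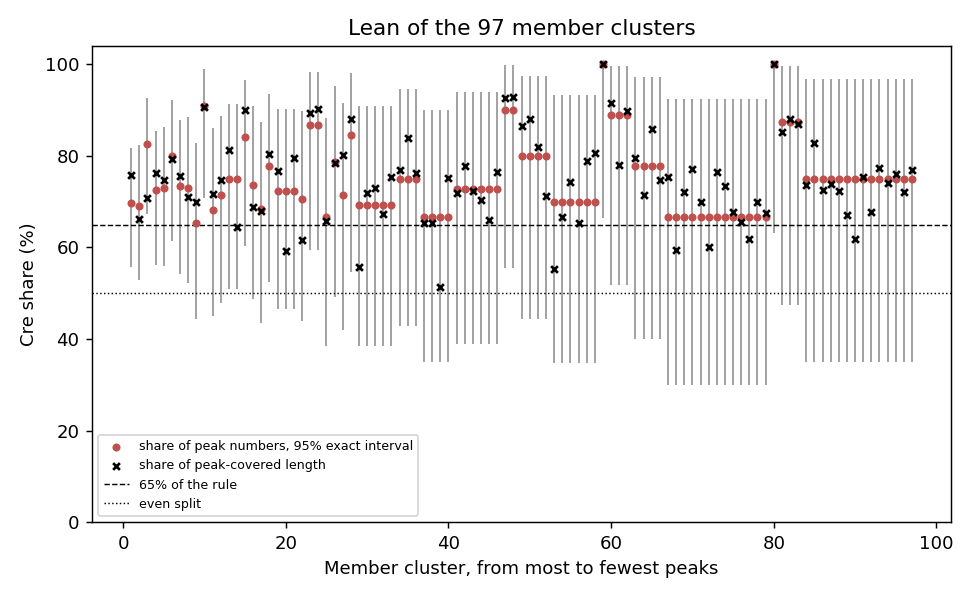
Cre share in percent of each member cluster, ordered from most to fewest peaks, with 95% exact intervals in grey and crosses for the share of covered length. The dashed line is the 65% of the rule, and in 74 of 97 clusters the interval reaches down to the overall share of 50.5%.

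Most Cre peaks of the members overlapped no GFP peak, and a smaller share lay within 1 kb of one than among all Cre peaks. By at least 1 bp, 236 of 989 Cre peaks (23.9%) overlapped a GFP peak, and 229 of 340 GFP peaks (67.4%) overlapped a Cre peak. Over all peaks, 40.7% of Cre and 41.4% of GFP peaks overlapped the other list, and in balanced clusters 55.5% and 54.6%. GFP-leaning clusters mirrored the members, with 26.4% of GFP and 61.9% of Cre peaks overlapping. A low overlap share in the leading list was thus not particular to members. In the members, a GFP peak lay within 1 kb of 52.0% of the Cre peaks, and a Cre peak within 1 kb of 90.6% of the GFP peaks. The 753 member Cre peaks without overlap had a median of 11 fragments and at most 25. Of these, 110 had 9 or fewer and 108 had 15 or more. The Cre and GFP peaks as wholes were alike in height, with medians of 12 (7 to 36) and 11 (7 to 28) fragments. The background pileup of the Cre library was 1.06 times that of the GFP library, and absence from a list does not separate a low signal from none.

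Where the lists overlapped inside members, the tallest overlapping Cre summit was usually higher than the GFP summit. Pairs were counted by GFP peak, each set against the tallest Cre peak that overlapped it. This choice favours Cre wherever several Cre peaks overlapped a GFP peak, and the same Cre peak could enter several pairs. Of 229 such pairs, the Cre peak had more fragments in 157 (68.6%), the GFP peak in 51 (22.3%) and neither in 21. The median Cre minus GFP difference was 2 fragments (interquartile range 0 to 5). In balanced clusters the Cre peak was higher in 50.9% and the GFP peak in 38.1% of 2475 pairs. In GFP-leaning clusters these shares were 39.0% and 46.3% of 205. Pileups come from the same contrast as the rule and are given as a description.

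Peaks of members lay between genes more often than peaks of other large clusters did. Of the 1329 peaks, 29.5% had an intergenic summit (27.1 to 32.0), against 22.0% in balanced clusters (21.2 to 22.9) and 14.5% in GFP-leaning clusters (12.5 to 16.8). A further 59.9% lay inside a protein-coding gene, against 63.1% and 73.9%, and 10.6% lay within 1 kb of a gene end (9.0 to 12.4), against 14.9% (14.1 to 15.6) and 11.5%. The Prkch and Dcn clusters gave 78 of the intergenic peaks, and without both the intergenic share was 25.4% (23.0 to 27.9), whose lower bound lay just above the upper bound of balanced clusters. No balanced cluster was left out for this comparison. Counted by cluster the classes were closer: over 50% of peaks were intergenic in 24 of 97 members (24.7%, 16.5 to 34.5), against 21.5% of balanced (18.2 to 25.1) and 17.3% of GFP-leaning clusters (9.8 to 27.3), and these intervals overlap.

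**Figure D4:**
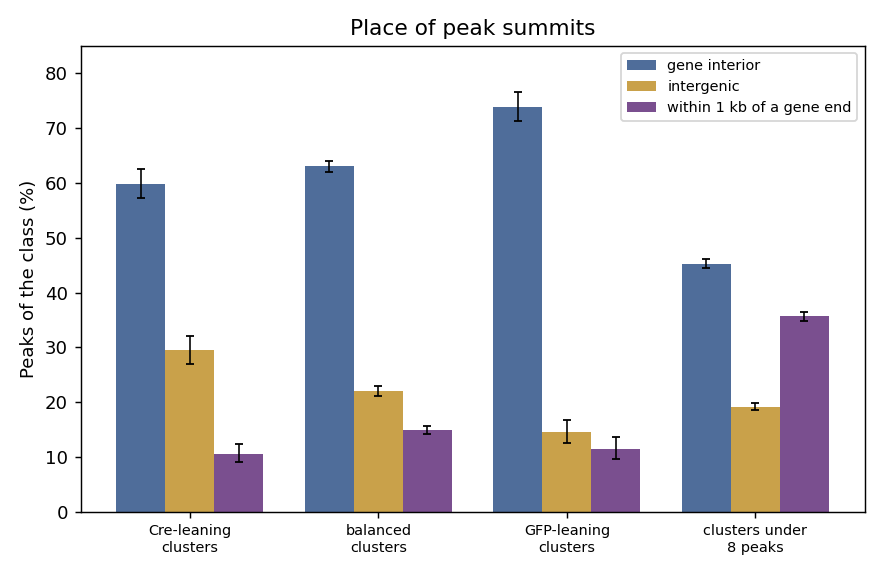
Percent of peaks (y) whose summit lay inside a gene, between genes or within 1 kb of a gene end, for Cre-leaning, balanced and GFP-leaning clusters and for clusters under 8 peaks, with 95% exact intervals. The intergenic bar is 29.5% in Cre-leaning clusters, 22.0% in balanced and 14.5% in GFP-leaning ones.

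By gene content, 39 of the 97 clusters lay within 1 protein-coding gene, 13 touched 2 or more, and 19 touched none. The nearest gene to those 19 was 3876 to 394282 bp away (median 51844), and 12 of them held a noncoding gene. A transcription start was inside 28 members (28.9%, 20.1 to 39.0), against 232 of 563 balanced clusters (41.2%, 37.1 to 45.4) and 28 of 81 GFP-leaning ones (34.6%). Starts were known for 17492 of 21887 protein-coding genes, so starts such as those of Sox9 and Dcn are not in these counts. Along the gene, 29.0% of 632 placed member peaks lay in the first of 4 equal stretches from the start (25.4 to 32.7), against 36.1% in balanced (34.7 to 37.5) and 40.4% in GFP-leaning clusters (36.6 to 44.2). Peaks of 1 gene share its length, so these intervals are too narrow.

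The lean of the peaks around the members was not used to choose members. The gap and the minimum of the rule still set which peaks count as flanks. Within 100 kb of a member, small clusters of fewer than 8 peaks held 220 Cre and 145 GFP peaks. The Cre share was 60.3% (55.1 to 65.3). Beside balanced clusters the share was 50.9% (48.8 to 53.0, 2222 peaks), and beside GFP-leaning clusters it was 48.3% (42.8 to 53.9, 325 peaks). At this distance the interval beside members overlapped neither of the others. These intervals take neighbouring peaks as independent, so they are too narrow and do not stand for a test. Within 50 kb the share was 60.9% (53.7 to 67.8), against 50.7% (47.9 to 53.6) beside balanced and 51.7% (44.1 to 59.3) beside GFP-leaning clusters, whose interval overlaps that of the members. Within 200 kb it was 59.1% (55.3 to 62.8), against 50.7% (49.0 to 52.4) and 48.5% (44.3 to 52.6). Leaving out each chromosome in turn gave 59.6 to 61.3% beside members within 100 kb. Without chromosome 10 the interval beside members (54.2 to 64.9) overlapped that beside GFP-leaning clusters (44.5 to 56.2). Counted by small cluster, 74 had more Cre peaks, 38 more GFP peaks and 35 equal numbers, against 355, 334 and 160 beside balanced clusters. Neighbouring large clusters are given as a description, since the rule set their lean too. Of 50 within 100 kb of a member, 16 were members (32.0%, 19.5 to 46.7), against 31 of 248 beside balanced clusters (12.5%). Each pair of members enters this count from both sides, so the interval is too narrow. The members formed 8 such pairs, among them those at Prkch, Dcn, Btg1, Aopep, Lpcat1 and Fth1. Flanks share a library with the members, and local differences in the depth of that library were not tested.

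**Figure D5:**
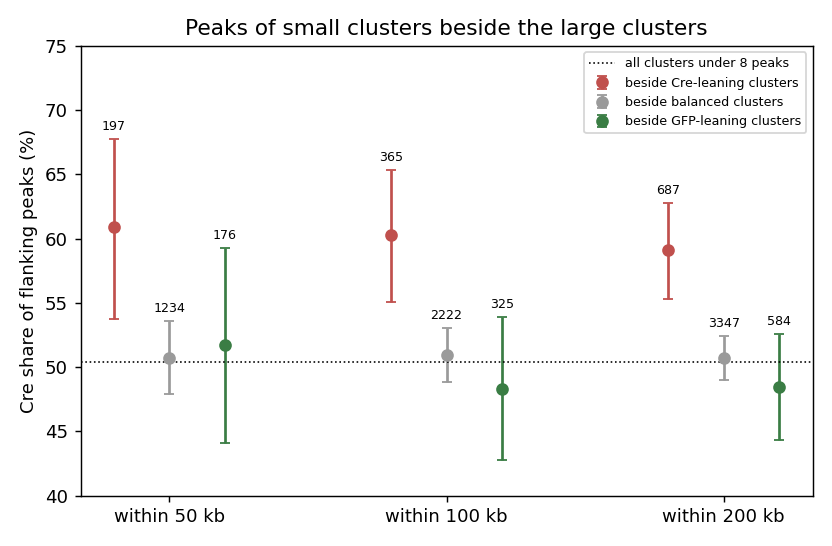
Cre share in percent (y) of peaks in clusters under 8 peaks that lay within 50, 100 or 200 kb of Cre-leaning, balanced or GFP-leaning clusters, with 95% exact intervals and the number of peaks above each. Beside Cre-leaning clusters the share is 60.9%, 60.3% and 59.1%, above the dotted line for all small clusters (50.4%).

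Genes met by members, taken with 10 kb on each side, numbered 122 of 21887 protein-coding genes (0.557%), against 116 met by GFP-leaning clusters (0.53%). Of 310 genes in 20 lists of cartilage, signalling and cell type genes, 9 met a member and 6 met a GFP-leaning cluster. Large clusters of any lean met 64 list genes, of which 9 (14.1%, 6.64 to 25.0) met a member, near the 12.3% among all genes met by a large cluster (122 of 990). The interval of the list genes holds the share of all genes. Members met Dcn and Epyc of 28 cartilage matrix genes, Sox9 and Runx1 of 25 chondrocyte transcription factors, and Junb of 21 AP-1 genes. They met Bcl3, itself a cofactor of NF-κB, in a list of 24 genes named for JAK-STAT. They also met Traf2 of 22 NF-κB genes and Fgf2 of 26 genes of FGF, Wnt and Hedgehog signalling. GFP-leaning clusters met Acan and Matn3 of the matrix genes, Nfib and Zbtb20 of the transcription factors, and Akt2 and Cdon. Members met 0 of 17 hypertrophy genes, 0 of 22 proteases, 0 of 20 HDAC and corepressor genes, 0 of 26 BMP and TGF-beta genes, 0 of 18 Akt pathway genes and 0 of 18 lipid genes. Large clusters of any lean met only 2, 0, 0, 5, 1 and 2 genes of these lists, in the same order. The lists do not hold every gene of a pathway, so nothing is read from these zeros.

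At gene ends, 28 of the 122 genes had a Cre peak alone, 3 a GFP peak alone, 37 both and 54 neither. Over all protein-coding genes, 4.24% had a Cre peak alone, and since members were chosen for Cre peaks, nothing is read from this count. For 24 genes a Cre-alone end peak lay inside a member itself. Among these, the highest fold enrichment, the authors' value within the Cre list, was at Sp1 (8.96, 17 fragments), a factor that binds GC boxes. Next were Zbtb7b (7.97), A4galt and 1810009A15Rik (7.47 each) and M1ap (6.97). Aurkaip1, B4galt1, Dok1, Ganab, Rnh1 and Srsf2 followed at 6.47 each, and then Traf2 at 6.25. The B4galt1 peak overlapped a GFP peak whose summit lay outside the window. Folds of these 24 reached down to 4.19 at Prdx2, at the edge of the Junb cluster.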

How the data were processed

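Chromatin from sonicated nuclei was immunoprecipitated for H3K27ac and libraries were made with the NuGene Ultralow kit, per the labels' protocols. The tools bcl2fastq 1.8.4, BWA, Picard and SICER and the mm10 build are listed, without roles, in the submitters' processing notes. The deposited lists, 1 per library, are named for MACS2 and have its columns. The version, settings and control of MACS2 were not given in the sources used here. The authors' deposited fold was read as a ratio of observed to expected pileup at the summit, with 1 added to both. The −log10 p-value of each deposited peak belongs to its summit. So does the deposited −log10 q-value, from which the deposited score is made. Read totals were not given in the sources used here.

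Whole-number summit pileups were tried against the fold and −log10 p-value together. For 100% of peaks the best whole number gave the deposited −log10 p-value within 0.001. The Cre list held 13130 peaks and the GFP list 12873. Positions are 1-based mm10, genes and sequences come from RefSeq GRCm38.p6, and gene ends were windows of 1 kb. Overlap needed at least 1 bp. Shares carry exact Clopper-Pearson 95% intervals for counting error only. The clustering was tested on simulated data. Python 3.11.15, pandas 2.3.3 and scipy 1.17.1 were used. With 1 library per group there was no test across samples and no p-value. The members and gene lists were chosen with earlier results of these data known. Genes were named for the largest clusters, the highest shares, clusters beside the threshold, the 12 Cre-alone gene ends of highest fold and listed genes that met a member. Not every gene that this rule names is described, and 1 result is not reported here. Alternatives changed the gap, the minimum, the share, the threshold on peaks, merging, the windows and the overlap.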

Additional observations from a re-analysis of the deposited data

How the results depend on the processing

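The number of members was 95 and 99 with gaps of 10 and 15 kb, 69 at a Cre share of at least 70%, 83 with pileups of at least 10 fragments, 92 with lists of equal length and 97 without X and Y, against 97 as reported. It moved further under other settings. A minimum of 6 peaks gave 204 clusters with 2002 peaks, and a minimum of 10 gave 58 clusters. A Cre share of at least 60% gave 190 clusters and 2478 peaks, 68.7% of them Cre, and one of at least 70% gave 77.3% Cre. Keeping peaks at −log10 q-values from 5 up gave 51 clusters and 624 peaks, and merging peaks within 500 bp gave 47 clusters and 577 peaks, 71.9% Cre. Fewer peaks entered both of these, and each met 34 of the 97 members. Clusters leaning to GFP numbered 83 and 80 with gaps of 10 and 15 kb, against 81 as reported. They numbered 196 and 56 with minimums of 6 and 10 peaks, and 188 and 44 at shares of 60% and 70%. The q-value threshold gave 42, the pileup threshold 64, lists of equal length 82, leaving out X and Y 80, and merging 22. A lean by covered length, chosen after seeing the data, gave 120 clusters, 71.3% Cre, with 87 of the 97 among them, and 103 leaning to GFP. The share of member peaks inside genes was 59.9%, and 63.7% with windows of 500 bp, 51.6% with 2500 bp, 64.7% with all genes of the table and 56.4% for −log10 q-values from 5 up. The share of Cre members overlapping the GFP list was 23.9%, and 11.1% when 50% of both peaks had to overlap, 52.0% within 1 kb and 30.8% for −log10 q-values from 5 up. The cause was not tested. No paired analysis was possible because each group had 1 library, and for the same reason no replicate could be left out. Summit pileups of 7 to 36 fragments limit what a single peak can show.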
